A study of Mus musculus with 21 samples.

Results

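The 38 genes described here carry out mitosis: the kinase and cyclins that start it, the spindle's motors and crosslinkers, the kinetochore and its checkpoint, and the machinery of cytokinesis and mitotic exit. They were taken by symbol from a fixed list, 1 row each, out of 47729 genes in the count table. That list was chosen with earlier results of these data known, so its shares of calls beside those of all genes are descriptions. All 38 genes passed the filter on low counts in both experiments. The study measured RNA in 21 bulk libraries of mouse bone marrow hematopoietic stem cells (HSCs), sorted as CD48- LSK CD150+ cells (lineage-negative, Sca-1 and Kit positive), in 7 groups of 3. WT mice and mice labelled Atg5-/- (Mx1-Cre; Atg5fl/fl) each received 10% DMSO or 10 mg/kg bortezomib, retro-orbitally, 48 h and 24 h before analysis. Bortezomib blocks the proteasome, and Atg5 is needed to form autophagosomes. Mx1-Cre is driven by an interferon-responsive promoter and acts in many tissues besides blood, and the WT mice are not labelled as carrying Cre. The other 3 groups came from untreated RFP-EGFP-LC3 mice, whose tandem tag loses EGFP fluorescence in acidic autolysosomes: RFP single positive, RFP GFP double positive and RFP GFP double negative HSCs. Ages and sexes are not given in the labels. They also do not say whether the 3 libraries of a group came from separate animals, so p-values measure the spread between these libraries.

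HSCs are mostly quiescent, and transcripts of mitotic genes come largely from the few that divide. The genes are switched on together late in the cell cycle, when MuvB complexes with B-MYB and FOXM1 replace repression by DREAM at promoters that often hold CCAAT boxes, bound by NF-Y, and cell cycle genes homology regions (CHR). In a bulk library, fewer dividing cells and less mitotic RNA per cell cannot be told apart. Proteasomes also degrade many of these proteins at the end of mitosis, on orders of the anaphase-promoting complex (APC/C), so that transcript and protein need not move together.

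Promoter windows were found for 32 of the 38 genes in the RefSeq table (GRCm38.p6, 250 bases before to 50 after the start); Aurkb, Ccna2, Incenp, Kif20a, Spc24 and Tpx2 were unmatched. CCAAT, searched on both strands, occurred in 25 of the 32 (78.1%), and in 41.1% of all 27025 genes in the table, counting a gene if any of its windows held the motif. The CHR core TTTGAA or TTCGAA, also on both strands, occurred in 26 of the 32 (81.2%) and in 21.7% of all genes; 23 of the 32 (71.9%) held both motifs, against 8.61% of all genes. By window, the shares over all 32851 windows were 37.4%, 19.2% and 7.52%, against 79.4%, 82.4% and 73.5% of the members' 34 windows. The 6 promoters below are read 5′ to 3′ along the gene's strand and end just before the start. They are a selection: 5 were picked from the 13 matched genes that rose with bortezomib in WT HSCs. All 5 hold the CCAAT spacing described below, which not every gene that rose holds. The last, Top2a, belongs to a gene that was not called although it holds the most motif matches. Capitals mark CCAAT (or ATTGG) and the CHR core (or its reverse complement TTCAAA).
Cdk1: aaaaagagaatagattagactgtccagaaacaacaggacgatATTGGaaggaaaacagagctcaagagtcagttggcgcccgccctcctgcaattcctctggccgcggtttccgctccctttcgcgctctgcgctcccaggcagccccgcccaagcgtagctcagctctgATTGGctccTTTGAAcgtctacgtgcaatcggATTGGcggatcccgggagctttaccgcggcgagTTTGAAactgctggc
Ccnb1: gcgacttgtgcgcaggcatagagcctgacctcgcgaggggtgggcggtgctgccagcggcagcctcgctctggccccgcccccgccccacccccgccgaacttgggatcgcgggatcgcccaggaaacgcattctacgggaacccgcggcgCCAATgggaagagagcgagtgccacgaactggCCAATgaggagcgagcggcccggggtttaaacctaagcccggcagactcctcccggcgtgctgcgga
Ccnb2: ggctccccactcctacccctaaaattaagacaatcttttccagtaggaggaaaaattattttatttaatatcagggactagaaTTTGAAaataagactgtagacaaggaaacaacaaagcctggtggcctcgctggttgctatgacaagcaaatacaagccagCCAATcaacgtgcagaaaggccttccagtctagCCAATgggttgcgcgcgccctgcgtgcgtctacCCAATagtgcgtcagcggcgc
Aurka: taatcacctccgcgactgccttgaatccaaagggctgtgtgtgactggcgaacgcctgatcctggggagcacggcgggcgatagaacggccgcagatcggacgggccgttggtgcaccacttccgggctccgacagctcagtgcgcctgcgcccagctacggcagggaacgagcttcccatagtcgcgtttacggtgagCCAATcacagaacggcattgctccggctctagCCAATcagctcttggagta
Ube2c: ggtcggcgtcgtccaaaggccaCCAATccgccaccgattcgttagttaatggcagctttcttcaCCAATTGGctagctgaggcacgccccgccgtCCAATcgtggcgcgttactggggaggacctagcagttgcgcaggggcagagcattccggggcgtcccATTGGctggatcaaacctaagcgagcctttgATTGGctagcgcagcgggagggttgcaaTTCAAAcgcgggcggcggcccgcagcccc
Top2a: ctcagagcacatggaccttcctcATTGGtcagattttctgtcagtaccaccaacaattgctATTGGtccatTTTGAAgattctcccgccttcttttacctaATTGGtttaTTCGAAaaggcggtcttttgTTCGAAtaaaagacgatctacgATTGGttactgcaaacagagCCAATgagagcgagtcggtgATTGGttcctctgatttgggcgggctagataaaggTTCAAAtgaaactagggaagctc
Their positions are chr10:69352913-69353162 (minus strand) for Cdk1, chr13:100786487-100786736 (minus strand) for Ccnb1, chr9:70421555-70421804 (minus strand) for Ccnb2, chr2:172370571-172370820 (minus strand) for Aurka, chr2:164769679-164769928 (plus strand) for Ube2c and chr11:99024190-99024439 (minus strand) for Top2a. In Cdk1, Ccnb1, Ccnb2, Aurka and Ube2c, some or all neighbouring CCAAT matches start 31 to 33 bases apart. The gaps were 128 and 32 bases in Cdk1 and 42, 3, 28, 67 and 31 bases in Ube2c. A spacing of 31 to 33 bases occurred in 8 of the 18 matched members with 2 or more CCAAT. It occurred in 7.91% of the 3842 windows of the whole table with 2 or more (members counted by gene, the table by window). That range was picked after the positions were seen. Both motifs were present in 9 of 13 matched members that rose with bortezomib in WT and in 14 of 19 that were not called. Birc5, Mad2l1 and Nuf2 rose without either motif in the window. A match or its absence is a description of these letters only.

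Library totals ran from 15005500 to 31481691 counts, and the lowest count of any member in any library was 11 (Kif4). Atg5 does not check the labels, because whole-gene counts include exons outside a floxed part: its mean was 56.5 ± 17.4 CPM (counts scaled to library size; SD, n = 3) in WT DMSO, 103 ± 31.6 in WT bortezomib, 112 ± 3.77 in Atg5-/- DMSO and 111 ± 27.2 in Atg5-/- bortezomib. Summed CPM of 12 HSC markers was 3493 to 3668 in WT DMSO, 1954 to 2519 in WT bortezomib, 3125 to 3831 in Atg5-/- DMSO and 2822 to 3213 in Atg5-/- bortezomib. Of lineage markers, Cd3e, Cd3g, Cd8a, Gzma, Ncr1, Pax5, Ms4a1, Ctsg, Gp6 and Il7r were at 0 in all 21 libraries. WT DMSO 3, WT bortezomib 3 and Atg5-/- bortezomib 3 stood apart from the other libraries in an earlier principal component analysis of these counts, and results are also given without them. The share of Xist in Xist plus Ddx3y counts, which separates female from male RNA, was 99.2%, 98.6% and 60.0% in WT DMSO 1 to 3, 46.4%, 31.8% and 90.3% in WT bortezomib 1 to 3, at most 0.987% in Atg5-/- DMSO, and 100%, 0% and 3.51% in Atg5-/- bortezomib 1 to 3. Sex composition therefore differed between the groups compared, and values with the share as a covariate are given beside the comparisons in which it changed a call or a median.

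Levels between genes were compared as CPM per kb of transcript. In WT DMSO, survivin (Birc5) and the centromeric histone Cenpa led, at 84.6 and 74.0 CPM per kb, followed by Ube2c at 61.0 and Ccnb2 at 52.5. Cenpe, Cenpf and Mki67, the longest coding sequences of the set, were lowest at 1.56, 1.40 and 1.23 CPM per kb. All 38 genes had counts in all 21 libraries.

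**Figure D1:**
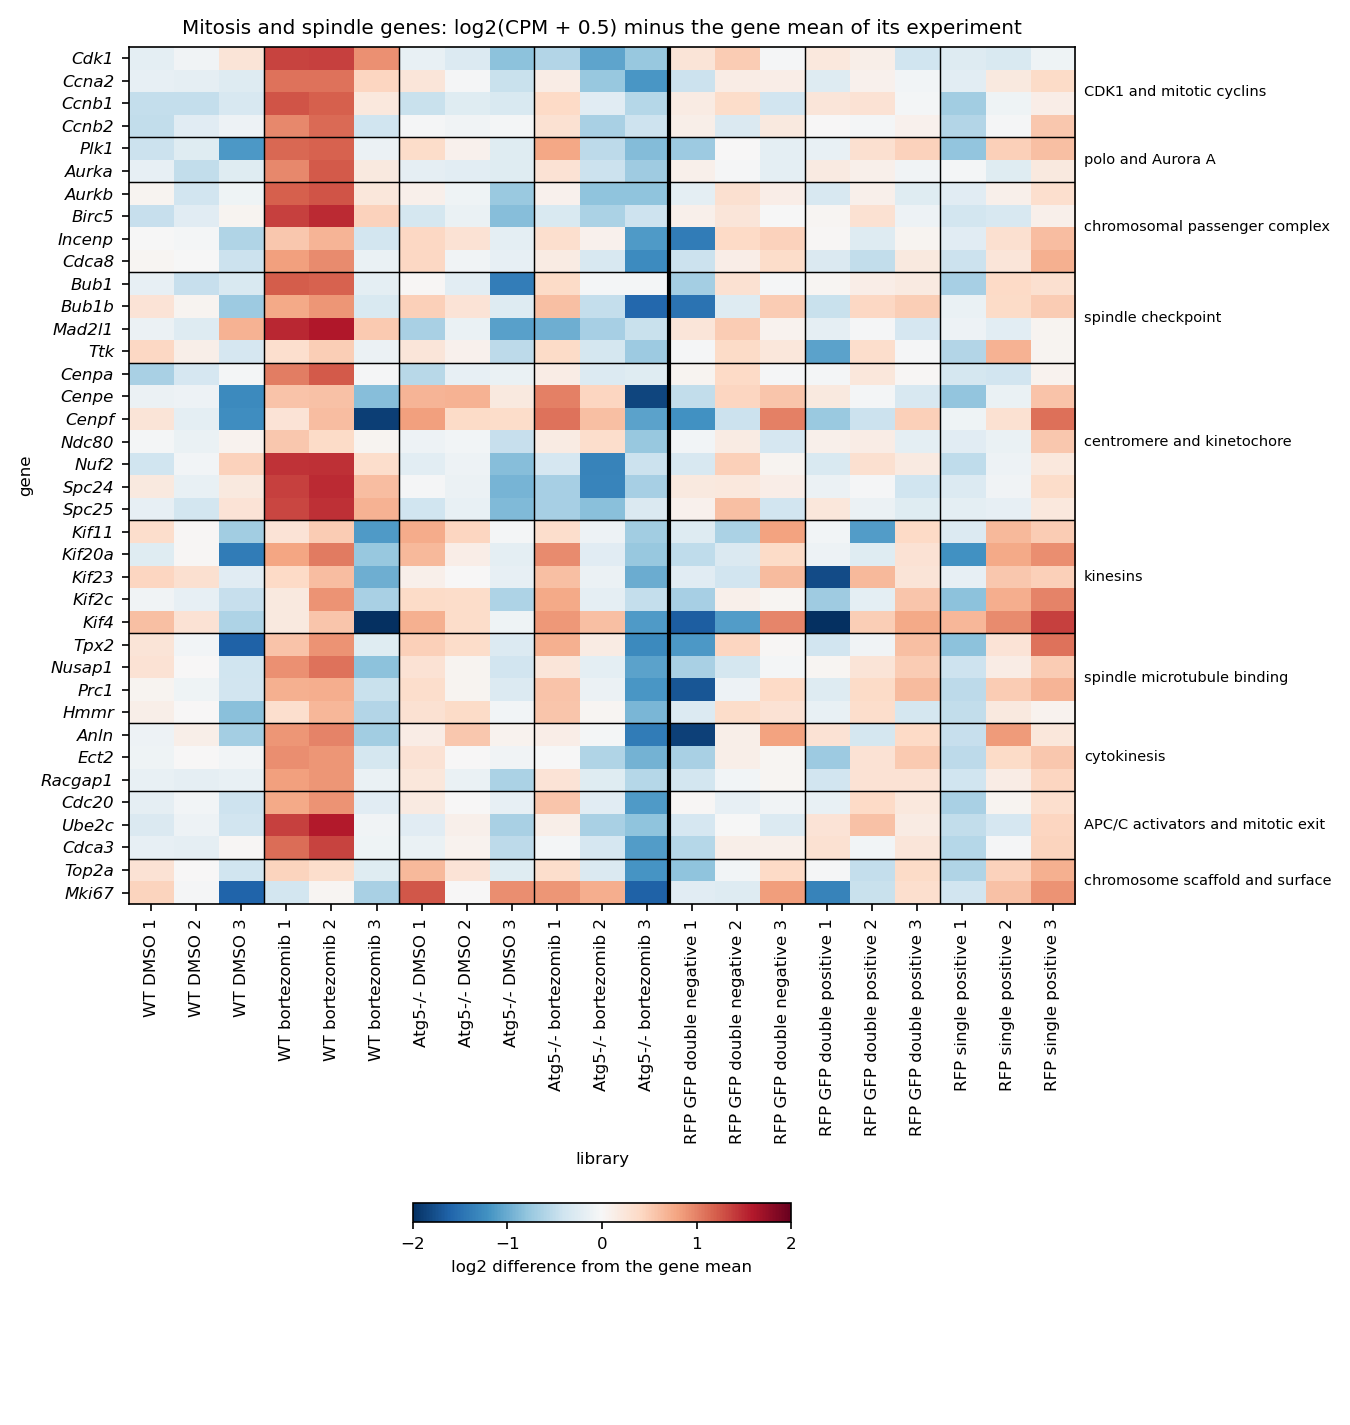
Each cell is log2(CPM + 0.5) of a gene (rows, grouped by role) in a library (columns), minus that gene's mean over the 12 treatment or the 9 reporter libraries. WT bortezomib 1 and 2 stand out, WT bortezomib 3 is the lowest of its group in 38 of 38 genes, and the reporter groups show no shared direction.

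Bortezomib against DMSO in WT HSCs asked how blocking the proteasome alters these transcripts. Of the 38 genes, 16 rose and none fell (edgeR quasi-likelihood test, Benjamini-Hochberg over 16149 genes, adjusted p under 0.05), where 7.97% of all genes tested rose and 7.56% fell. The median change over the 38 was 0.76 on the log2 scale (1.70-fold), against -0.04 over all genes, and 35 of 38 estimates were above 0. The libraries did not overlap, all bortezomib above all DMSO, for 12 members, and for 19.3% of all genes tested. All 4 genes of CDK1 and the mitotic cyclins rose, as did both polo and Aurora A kinases. None of the 5 kinesins, 4 spindle microtubule-binding genes or 3 cytokinesis genes passed the test.

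Cdk1 (chr10:69335146-69352938), the kinase that drives entry into mitosis, was at 102, 110 and 140 CPM in WT DMSO 1 to 3 and at 297, 300 and 220 CPM in WT bortezomib 1 to 3. The groups did not overlap, and the rise was 2.32-fold (log2 1.22 ± 0.21, SE; adjusted p = 0.00361, edgeR). Its partner cyclin B1, Ccnb1 (chr13:100778650-100786570), was at 52.5, 52.9 and 58.7 CPM with DMSO and 177, 169 and 85.2 CPM with bortezomib. It rose 2.63-fold (log2 1.39 ± 0.26, SE; adjusted p = 0.00487, edgeR), with the third bortezomib library closest to the controls. Cyclin A2, Ccna2 (chr3:36564865-36572150), acts from S phase into early mitosis and was at 104, 104 and 98.2 CPM with DMSO against 248, 248 and 157 CPM with bortezomib (log2 1.09 ± 0.28, SE; adjusted p = 0.0181, edgeR). Ccnb2, a second B-type cyclin, also rose (log2 0.98 ± 0.31, SE; adjusted p = 0.0429, edgeR), but its bortezomib values of 190, 213 and 73.5 CPM overlapped the DMSO values, which began at 68.4 CPM.

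Of the kinases that build the spindle poles, Aurka (chr2:172356190-172370535) was at 42.0, 33.2 and 39.6 CPM with DMSO and 91.9, 110 and 53.8 CPM with bortezomib. Every bortezomib library was above every control, and the rise was 2.23-fold (adjusted p = 0.0117, edgeR). Plk1, polo-like kinase, had the largest estimate of the 38 (log2 1.43 ± 0.41, SE; adjusted p = 0.0289, edgeR), from 24.6, 27.9 and 14.6 CPM to 73.6, 75.9 and 30.6 CPM.

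In the chromosomal passenger complex, which corrects faulty attachments of chromosomes to the spindle, the kinase Aurkb and survivin rose while the other members did not pass the test. Birc5 (chr11:117849251-117855743) was at 66.8, 78.1 and 95.6 CPM with DMSO and 237, 259 and 126 CPM with bortezomib, a rise of 2.59-fold (log2 1.37 ± 0.25, SE; adjusted p = 0.00421, edgeR). Aurkb (chr11:69045647-69051664) was at 72.1, 53.1 and 65.3 CPM and then 159, 167 and 81.2 CPM (2.14-fold; adjusted p = 0.0233, edgeR). For neither gene did the groups overlap. The scaffold Incenp (log2 0.55 ± 0.33, SE) and borealin, Cdca8 (log2 0.74 ± 0.32, SE), had adjusted p-values of 0.284 and 0.134 with edgeR.

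The NDC80 complex, which holds microtubules at the kinetochore, has 4 subunits, and 3 of them rose. Spc25 (chr2:69193895-69206194) was at 62.4, 54.4 and 85.5 CPM with DMSO and 179, 195 and 114 CPM with bortezomib (2.41-fold; adjusted p = 0.00565, edgeR). Its partner Spc24 (chr9:21755442-21760303) was at 67.8, 53.1 and 67.7 CPM and then 153, 167 and 90.7 CPM (2.18-fold; adjusted p = 0.0134, edgeR). Both were higher in every bortezomib library than in any control. Nuf2 rose 2.19-fold (adjusted p = 0.0290, edgeR), whereas the estimate for Ndc80 itself was log2 0.38 ± 0.26 (SE; adjusted p = 0.347, edgeR), with 28.2, 26.4 and 30.5 CPM against 42.3, 38.1 and 30.2 CPM. Whether the subunits differed from each other was not tested. Cenpa (chr5:30666777-30674830), the histone H3 variant that marks centromeres, rose 2.22-fold (adjusted p = 0.0113, edgeR) from 86.3, 107 and 132 CPM to 275, 316 and 132 CPM, the third bortezomib library lying just above the highest control. Cenpe and Cenpf, large proteins of the outer kinetochore, gave log2 estimates of 0.66 ± 0.55 and 0.28 ± 0.56 (SE) and did not pass.

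Among spindle checkpoint genes, which delay anaphase until every kinetochore is attached, Mad2l1 rose 2.16-fold (adjusted p = 0.0247, edgeR) and Bub1 2.27-fold (adjusted p = 0.0350, edgeR). The groups overlapped for both: Mad2l1 was at 121, 110 and 214 CPM with DMSO and 374, 399 and 189 CPM with bortezomib. The estimates for Bub1b (log2 0.61 ± 0.43) and Ttk (log2 0.17 ± 0.30, both SE) did not pass the test. Of the genes of APC/C activation and mitotic exit, Ube2c (chr2:164769898-164778822), the ubiquitin-conjugating enzyme of the APC/C, was at 57.3, 65.6 and 54.1 CPM with DMSO and 181, 212 and 67.1 CPM with bortezomib. That was a rise of log2 1.38 ± 0.34 (SE) without overlap (adjusted p = 0.0153, edgeR). Cdca3, a trigger of mitotic entry, rose 2.04-fold (adjusted p = 0.0398, edgeR), and the estimate for the activator Cdc20 was log2 0.77 ± 0.34 (SE; adjusted p = 0.132, edgeR).

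The motors and late-acting genes did not pass the test. Strand in counting is not given in the sources used here, and 8 members overlap a protein-coding gene on the opposite strand in GENCODE M21 (Ccna2, Cdca8, Kif20a, Kif4, Nusap1, Prc1, Cdc20 and Ube2c), so their reads may include the neighbour's; Kif11 also contains processed pseudogenes. Kif11, which pushes spindle poles apart, was at 66.3, 52.5 and 31.8 CPM with DMSO and 63.0, 73.7 and 23.3 CPM with bortezomib, with the groups interleaved. Kinesin estimates ran from log2 -0.28 (Kif4) to 0.98 (Kif20a, SE 0.48, adjusted p = 0.179 with edgeR). Racgap1, a partner of Kif23 in cytokinesis, was higher in every bortezomib library than in any control yet missed the threshold (log2 0.76 ± 0.27, SE; adjusted p = 0.0709, edgeR). Top2a, which untangles sister chromatids, and the proliferation marker Mki67 had estimates of log2 0.22 ± 0.32 and -0.13 ± 0.56 (SE). Mki67 was at 19.2, 13.7 and 4.30 CPM with DMSO and 10.8, 14.4 and 8.80 CPM with bortezomib.

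**Figure D2:**
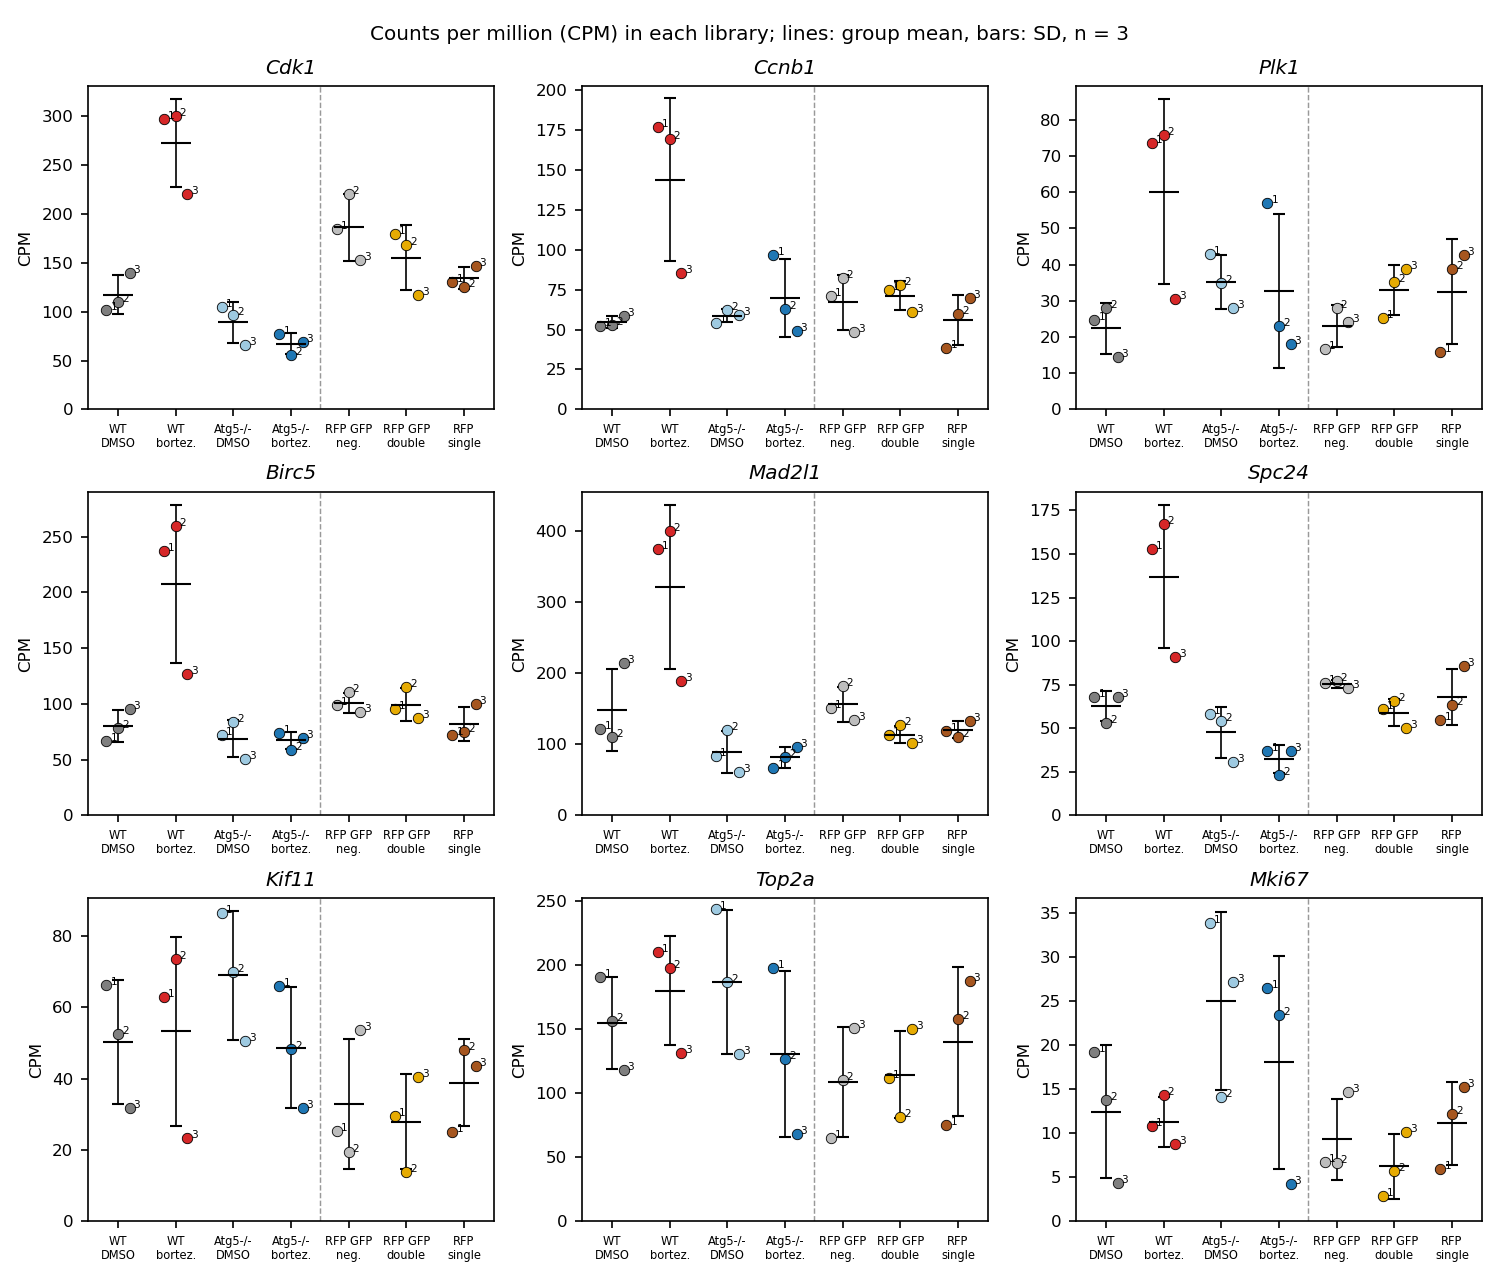
CPM of 9 members in each library (points, numbered by replicate) in the 7 groups, with the group mean (line) and SD (bar, n = 3); the dashed line separates the treatment from the reporter experiment. Cdk1 is at 220 to 300 CPM in WT bortezomib and at most 140 CPM in the other 3 treatment groups, while Kif11, Top2a and Mki67 overlap between the groups of each comparison.

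The WT response was largest in 2 libraries. Summed over the 38 genes, WT DMSO 1 to 3 held 2228, 2126 and 2066 CPM and WT bortezomib 1 to 3 held 4645, 5010 and 2375 CPM. WT bortezomib 1 and 2 were both above all controls for 33 genes, whereas WT bortezomib 3 was above them for 12, within their range for 17 and below it for 9. It also had the highest Cd48, at 54.3 CPM against 35.0 and 30.2 CPM in the other two and 9.99 to 12.4 CPM in WT DMSO. Without WT bortezomib 3, 22 members were called, and 2076 of 16906 genes tested. Without WT bortezomib 1, WT bortezomib 2 or WT DMSO 2, 4 members were called, and 588, 1325 and 731 of all genes. Without WT DMSO 1, 6 members were called, and 983 of all genes. The main fit called 2508 of 16149 genes. Cdk1, Ccnb1, Birc5 and Spc25 kept their call under all 15 alternatives. With the Xist share as a covariate 11 stayed called, and Ccnb2, Bub1, Mad2l1, Nuf2 and Cdca3 lost the call. In that fit 1629 of 16149 genes were called. Of the 3 WT bortezomib libraries, the 2 with the highest sums have the lowest Xist shares. Summed CPM of 10 T and NK cell markers, 5 of them at 0, was 148 to 219 in WT bortezomib and 87.0 to 92.7 in WT DMSO. That difference is nearly all Nkg7, at a mean of 166 against 74.0 CPM, while Klrb1c was at 11.04 against 12.3 CPM and Cd4 at 4.40 against 3.56 CPM. The sum of 8 progenitor markers, Cd48 among them and Il7r at 0, was 770 to 1012 against 856 to 972. The part of the Cd48 and HSC marker differences in the result was not tested.

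The genes that rose were mostly those with shorter coding sequences. The 38 were split at their median, into 19 with coding sequences of 402 to 1860 bases and 19 of 1884 to 9531 bases, a split chosen after the responses were seen and given here as a description. In WT, 15 of the 19 shorter genes rose with a median log2 change of 1.12, against 1 of the 19 longer genes (Bub1) and a median of 0.51; whether the shorter and longer genes differed was not tested. The median standard error was also larger for the longer genes, 0.38 against 0.31. The same split over all protein-coding genes tested gave 12.8% higher and 6.70% lower of 8716 shorter genes, and 2.52% higher and 12.8% lower of 4278 longer genes. The mean log2(CPM + 0.5) of the shorter members minus that of the longer ones was 0.66, 0.80 and 1.56 in WT DMSO 1 to 3 and 1.61, 1.54 and 1.76 in WT bortezomib 1 to 3. WT DMSO 3 thus lay near the bortezomib libraries. In Atg5-/- it was 0.47 to 0.69 with DMSO and 0.45, 0.37 and 1.23 with bortezomib, and 1.21 to 2.19 over the reporter libraries. When offsets for transcript length and GC content were fitted for each library, 16 members were called, 14 shorter and 2 longer. Of these 16, 15 were the same (Ccnb2 was lost and Racgap1 gained). Medians of the shorter and longer members were 1.14 and 0.61. With the offsets, 14.6% of shorter and 4.98% of longer protein-coding genes were higher, and 6.71% and 10.1% were lower. The offsets thus did not remove the difference by length over all genes. Without WT DMSO 3, WT bortezomib 3 and Atg5-/- bortezomib 3 together, 19 of the 19 shorter and 8 of the 19 longer genes were called. Of all 16410 genes tested in that fit, 2102 were higher. With the Xist share as a covariate the WT medians were 1.08 for the shorter and 0.69 for the longer genes.

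**Figure D3:**
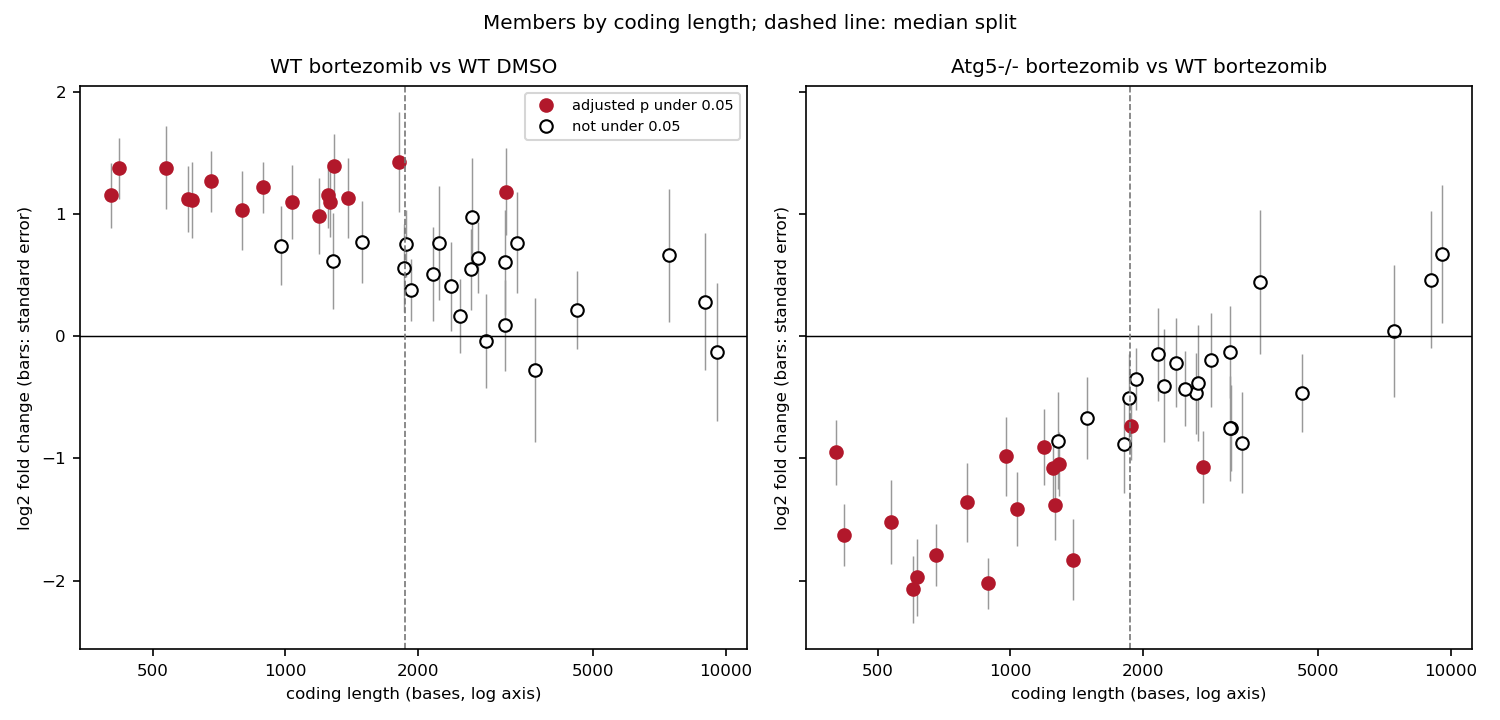
Log2 fold change (points; bars, standard error) of the 38 genes against coding length on a log axis, for bortezomib in WT (left) and for genotype under bortezomib (right); filled points passed the test and the dashed line is the median split. Filled points sit on the shorter side, 15 of 16 on the left and 15 of 17 on the right. Over all protein-coding genes tested, 12.8% of shorter and 2.52% of longer ones were higher in the left comparison. In the right comparison, 23.8% and 5.38% were lower.

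In HSCs labelled Atg5-/-, none of the 38 genes was called with bortezomib (edgeR; 0 at an unadjusted p under 0.05, and 0 with DESeq2). Of all genes tested, 3.63% were called in either direction, 2.02% higher and 1.61% lower. No member's libraries separated by treatment, where 9.73% of all genes tested did so downward and 10.6% upward. The median estimate was -0.15, and 32 of 38 were below 0. Spc24, Cdk1 and Ect2 had the smallest p-values. Spc24 was at 58.1, 54.3 and 30.9 CPM with DMSO and 37.2, 23.3 and 37.3 CPM with bortezomib (log2 -0.55 ± 0.27, SE; adjusted p = 0.323, edgeR). Cdk1 was at 105, 96.4 and 65.7 CPM and then 76.9, 55.6 and 68.7 CPM (log2 -0.41 ± 0.20, SE; adjusted p = 0.337, edgeR). For both the groups overlapped through Atg5-/- DMSO 3, the lowest control. Ect2, an exchange factor that starts the cytokinetic furrow, was at 64.2, 53.0 and 50.03 CPM and then 52.4, 34.5 and 27.2 CPM (log2 -0.55 ± 0.29, SE; adjusted p = 0.367, edgeR). The bortezomib libraries of this genotype lay far apart: Atg5-/- bortezomib 1 was the highest of its group in 34 genes and Atg5-/- bortezomib 3 the lowest in 28. Their sums over the 38 genes were 2692, 1804 and 1361 CPM, against 2564, 2383 and 1777 CPM with DMSO. Atg5-/- bortezomib 1 is also the one with 100% Xist. Summed CPM of 12 erythroid markers was 1029 to 1223 with bortezomib and 1700 to 2094 with DMSO in this genotype. That sum is mostly Car2, at a mean of 1039 against 1740 CPM, and Hbb-bt was at 22.6 against 133 CPM, while 2 of 11 tested markers were called lower and the list's median was 0.00 on the log2 scale. The members' median moved from -0.58 without Atg5-/- bortezomib 1 to 0.04 without Atg5-/- bortezomib 3, and no member was called in either case. Shorter and longer genes had medians of -0.15 and -0.14, and of -0.26 and -0.46 with the Xist share as a covariate.

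**Figure D4:**
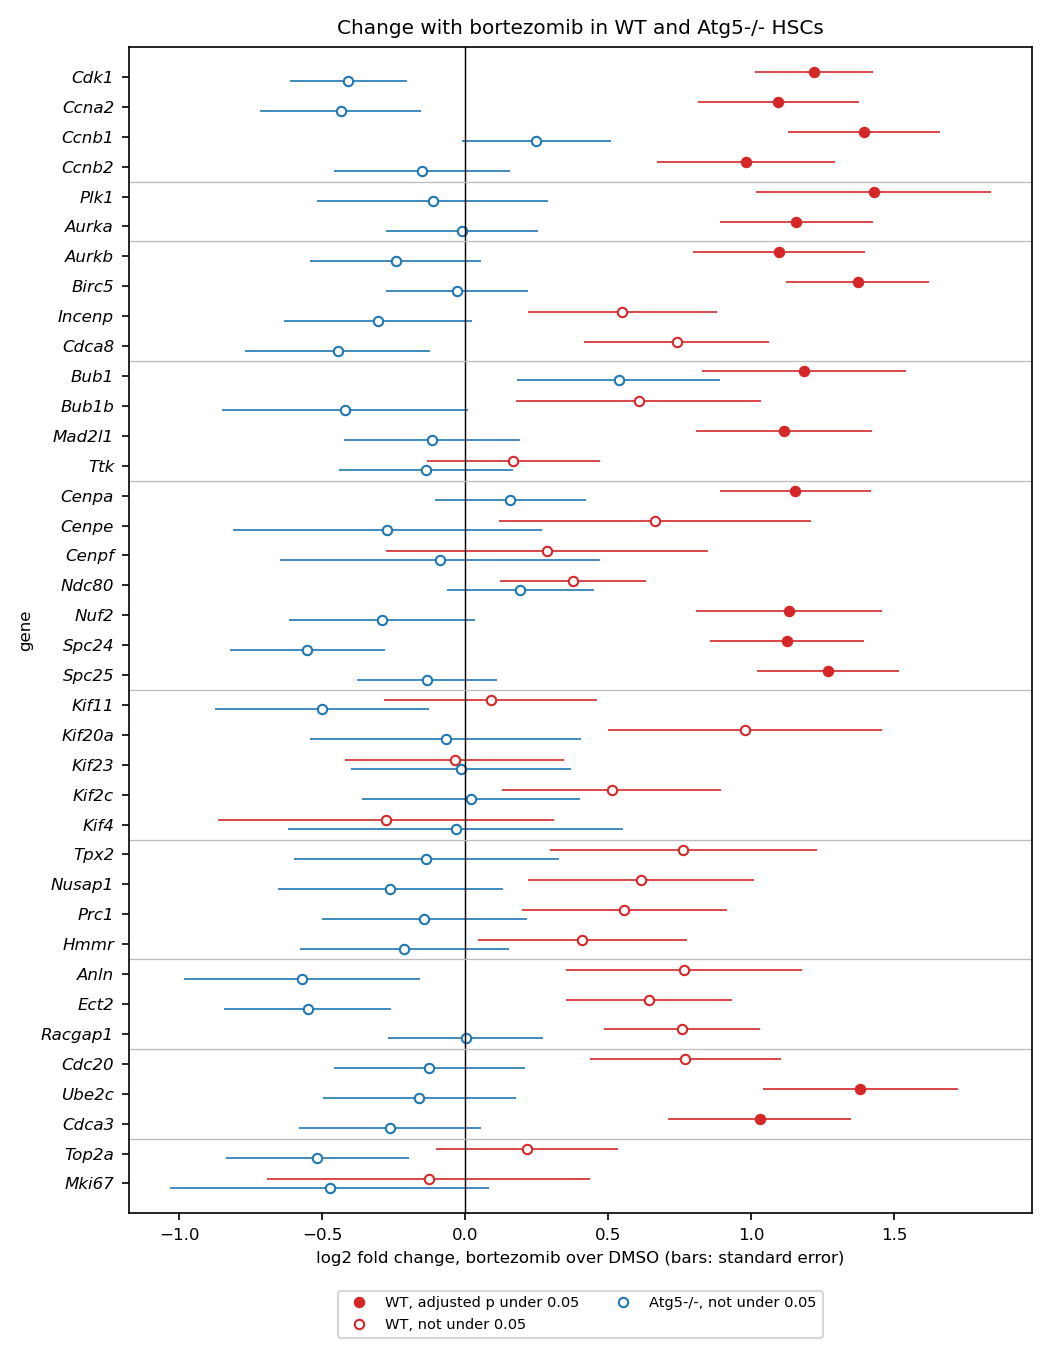
Log2 fold change with bortezomib (points; bars, standard error) of each gene in WT (red) and in Atg5-/- (blue), in order of role; filled points have an adjusted p under 0.05. The 16 filled points are all WT and lie between 0.98 and 1.43, and 32 of the 38 blue points lie below 0.

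Under bortezomib, Atg5-/- and WT HSCs were compared directly. Here 17 of the 38 genes were lower in Atg5-/- and none higher, where 15.3% of all genes tested were lower; the median difference was -0.80 against 0.08 over all genes. This comparison shares the WT bortezomib libraries with the one above. Cdk1 averaged 67.1 CPM in Atg5-/- against 273 CPM in WT (log2 -2.02 ± 0.21, SE; adjusted p = 7.67e-05, edgeR), and the highest Atg5-/- library, at 76.9 CPM, was below the lowest WT library, at 220 CPM. Spc24 was at 37.2, 23.3 and 37.3 CPM against 153, 167 and 90.7 CPM (log2 -2.07 ± 0.28, SE; adjusted p = 0.000182, edgeR). Mad2l1 was at 66.5, 82.7 and 95.9 CPM against 374, 399 and 189 CPM (log2 -1.97 ± 0.32, SE; adjusted p = 0.000405, edgeR). For none of these genes did the genotypes overlap.

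Spc25 was at 44.1, 39.3 and 57.3 CPM in Atg5-/- bortezomib (log2 -1.79 against WT), Birc5 at 73.8, 59.1 and 69.1 CPM (log2 -1.62) and Nuf2 at 41.7, 20.8 and 39.1 CPM (log2 -1.83), with adjusted p-values from 0.000209 to 0.000855 (edgeR). Ccna2 was at 130, 69.3 and 52.0 CPM and Aurkb at 73.7, 39.5 and 39.8 CPM (log2 -1.38 and -1.41). These genes, with Cdk1, Spc24 and Mad2l1, make up the 8 members whose libraries did not overlap, which was true of 21.8% of all genes tested in this direction. Ube2c, at 76.2, 44.7 and 40.1 CPM, and Cdca3, at 45.5, 37.0 and 21.1 CPM, were lower by the test with overlap through WT bortezomib 3. The other genes called were Aurka (log2 -1.08), Ccnb1 (-1.05), Ect2 (-1.07), Cenpa (-0.95), Cdca8 (-0.98), Ccnb2 (-0.91) and Racgap1 (-0.74). By role, these are all 4 of CDK1 and the cyclins, 3 of 4 passenger complex genes, 4 of 7 centromere and kinetochore genes and 2 of 3 cytokinesis genes, with 0 of 5 kinesins. Of the 17, Ect2 and Racgap1 were among the 19 longer genes. The median difference was -1.36 for the shorter and -0.38 for the longer 19. The same split over all protein-coding genes tested gave 14.1% higher and 23.8% lower of 8716 shorter genes (median -0.10). Of 4278 longer genes, 31.6% were higher and 5.38% lower (median 0.49). With length and GC offsets 17 were called, 16 of them the same (Ccnb2 lost, Anln gained), 14 shorter and 3 longer. In that fit, 23.6% of shorter and 9.42% of longer protein-coding genes were lower, and 13.6% and 21.3% were higher. With the Xist share as a covariate 16 of the 17 were called and Racgap1 was not, and 2525 of 16149 genes were lower. In the same comparison 7 of 12 HSC markers were higher in Atg5-/-, while 5 of 9 tested monocyte and macrophage markers were lower (median log2 -1.20) and, of 7 progenitor markers, 2 were lower and 1 higher (median log2 -1.50). Summed CPM was 306 to 672 in Atg5-/- and 648 to 922 in WT for 10 monocyte and macrophage markers, and 675 to 938 against 770 to 1012 for 8 progenitor markers, of which Il7r was at 0. Cd48, negative in the sort, averaged 8.86 CPM in Atg5-/- and 39.8 CPM in WT. The part of these differences in the result was not tested. Left-out libraries gave 12 to 22 calls, and 12 of the 17 were kept under all 15 alternatives. Over all genes, left-out libraries gave 3582 to 6000 calls, against 5234 in the main fit. Without WT DMSO 3, WT bortezomib 3 and Atg5-/- bortezomib 3 together, 22 members were called lower in Atg5-/- and 1, Mki67, was called higher. Of 16410 genes tested in that fit, 3118 were lower and 3331 higher.

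The difference between the 2 responses was tested as the interaction of genotype and bortezomib. There were 5 genes with a lower response in Atg5-/- than in WT, and 0 with a higher one, where 4.71% of all genes tested had a lower response, 4.35% a higher one and 9.05% either: Cdk1, Ccna2, Birc5, Spc24 and Spc25. Cdk1's response was lower by log2 -1.63 ± 0.29 (SE; adjusted p = 0.00769, edgeR) and Spc24's by -1.68 ± 0.38 (adjusted p = 0.0172, edgeR). Ccna2 (-1.53), Spc25 (-1.40) and Birc5 (-1.40) followed with adjusted p-values of 0.0284, 0.0243 and 0.0246. The median interaction was -1.01, against 0.06 over all genes, and 29 members had an estimate above 0 in WT and below 0 in Atg5-/-. Only Cdk1 kept its interaction call under all 20 alternatives. The count was 18 without WT bortezomib 3 and 1 without WT DMSO 2, WT bortezomib 1, Atg5-/- DMSO 1 or Atg5-/- DMSO 2, and 2 (Cdk1 and Ccna2) with the Xist share as a covariate. It was 2 without WT DMSO 1, WT bortezomib 2 or Atg5-/- bortezomib 2, 8 without Atg5-/- DMSO 3 and 10 without Atg5-/- bortezomib 1. Over all genes the main fit gave 1462 interaction calls, against 1452 without WT bortezomib 3 and 276 with the Xist share. Leaving out 1 library gave 352 to 2820 over all genes. Shorter and longer genes had median interactions of -1.29 and -0.65, and of -1.32 and -1.09 with the Xist share as a covariate. Over all protein-coding genes tested, the same split gave medians of -0.04 and 0.26 without the covariate, with 7.45% and 1.96% lower.

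With DMSO, 0 of 38 genes differed between the genotypes (edgeR; 1 at an unadjusted p under 0.05, 0 with DESeq2), as did 0% of all genes tested. The median difference was 0.14, and 0.39 with the Xist share as a covariate, which differs most between these groups. Ccnb2, Plk1, Cenpe and Cenpf were higher in every Atg5-/- library than in any WT one, which was true of 9.39% of all genes tested, and 0 members were lower in this way, against 8.63% of all genes. Mad2l1 had the smallest p, at 84.0, 120 and 61.7 CPM in Atg5-/- against 121, 110 and 214 CPM in WT (log2 -0.74 ± 0.31, SE; adjusted p = 0.491, edgeR). Cdk1, given above, differed by log2 -0.40 ± 0.20 (SE; adjusted p = 0.586, edgeR). Mki67 was at 33.8, 14.1 and 27.1 CPM against 19.2, 13.7 and 4.30 CPM (log2 1.02 ± 0.56, SE; adjusted p = 0.610, edgeR), and the groups overlapped.

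Other lists place these genes within the cell cycle. In WT with bortezomib, 16 of 76 other mitosis genes rose and none fell, with a median of 0.51, and 3 of 15 APC/C core subunits rose. The other mitosis genes with the smallest p-values were Cks2, a subunit of CDK complexes (54.1 to 146 CPM on average, log2 1.43), and the kinetochore genes Cenpk (29.9 to 78.4 CPM, log2 1.39), Ska1 (16.8 to 44.9 CPM, log2 1.41) and Cenpw (53.0 to 150 CPM, log2 1.497), with adjusted p-values of 0.00485 to 0.00636 (edgeR). Of 42 DNA replication genes 21 rose (median 0.71), and of 11 G1 cyclin, CDK and E2F genes 5 rose. Of 8 tested CDK inhibitor and pocket protein genes 1 rose and 1 fell, and 8 of 12 HSC markers fell. Of the other cell types' markers tested, 1 of 7 progenitor, 2 of 11 erythroid, 1 of 9 monocyte and macrophage and 1 of 3 T and NK cell markers rose, 1 erythroid marker fell, and 0 of 7 neutrophil, 0 of 7 megakaryocyte and 0 of 3 B cell markers were called.

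In Atg5-/- the lists gave different counts of calls. Of the replication genes 11 of 42 fell with bortezomib (median -0.70), where 1.61% of all genes tested fell. None of the 38 mitosis and spindle genes was called. Of the 76 other mitosis genes, 2 fell, Cenpm (log2 -1.51) and Pmf1 (log2 -1.05), both of the kinetochore. Another 2 rose, the kinetochore gene Zwint (169 to 328 CPM, log2 0.95) and Lin37, a MuvB subunit (44.2 to 74.9 CPM, log2 0.76), with adjusted p-values of 0.00514 to 0.0397 (edgeR). Under bortezomib, 41 of 42 replication genes were lower in Atg5-/- than in WT (median -1.43), as were 33 of 76 other mitosis genes (2 were higher, Lin37 and Zwint) and 8 of 15 APC/C subunits. Cenpm (log2 -2.49), the mitotic kinase Pbk (log2 -2.41), the CDK subunit Cks1b (log2 -1.87) and Pmf1 (log2 -1.70) led the other mitosis genes, each at an adjusted p of 0.000209 or less (edgeR). The interaction was lower for 30 of 42 replication genes and 14 of 76 other mitosis genes, among them Mybl2, which encodes B-MYB (log2 -1.98, adjusted p = 0.0152, edgeR), beside Cenpm, Pmf1 and Pbk (log2 -2.43, -1.64 and -1.91). Whether the lists differed from each other was not tested. With DMSO, and among the reporter groups, 0 genes of these cell cycle lists were called.

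**Figure D5:**
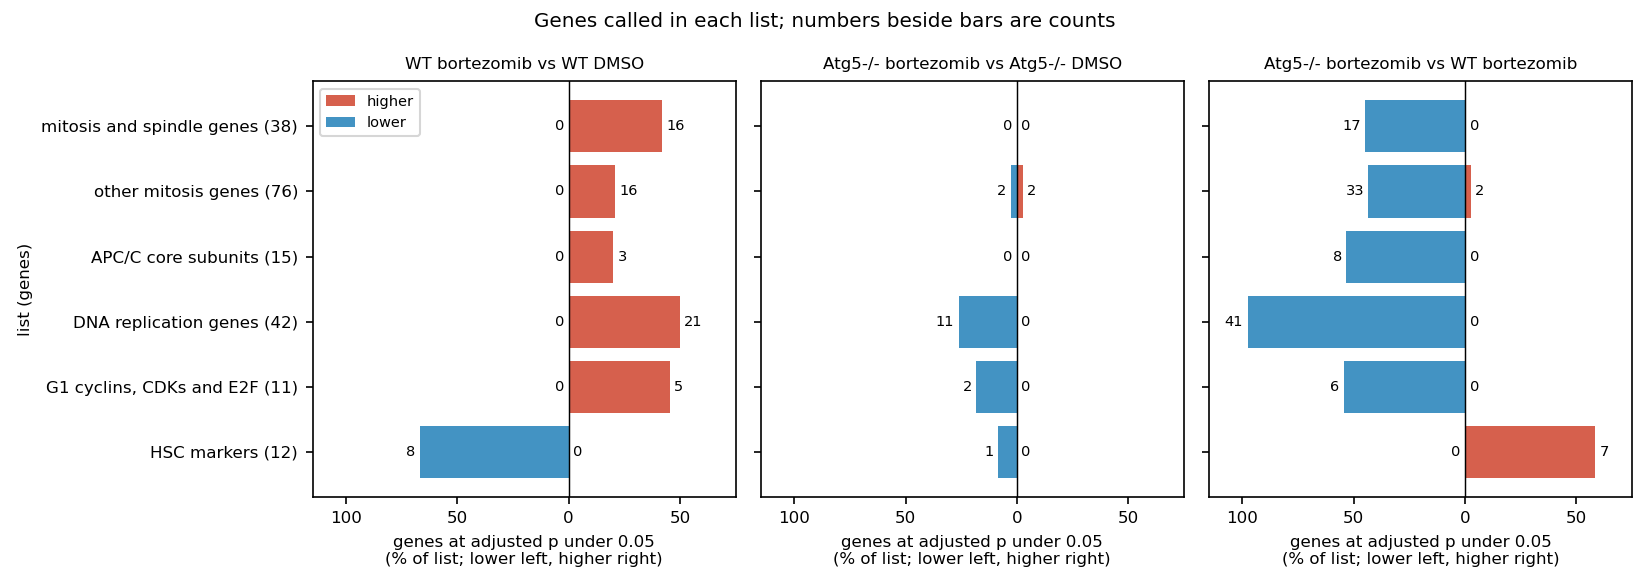
Share of each list called at an adjusted p under 0.05 (bars; higher to the right, lower to the left) in 3 comparisons, with the number of genes beside each bar and the list size in brackets. In Atg5-/- with bortezomib 11 replication genes were called lower and 0 of the 38 mitosis and spindle genes were called in either direction. HSC markers run opposite to the cell cycle lists in the outer panels, 8 lower and 7 higher.

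Among reporter HSCs, the comparisons asked whether cells sorted by RFP-EGFP-LC3 fluorescence differ in mitotic transcripts, and none of the 38 genes was called in any of the 3 (edgeR over 15375 genes; 0, 1 and 2 members at an unadjusted p under 0.05, and 0% to 0.0065% of all genes called). Median estimates were 0.08 for RFP single positive against double positive, 0.17 for RFP single positive against double negative, and 0.04 for double positive against double negative. Cdk1 was at 130, 126 and 147 CPM in RFP single positive, 180, 168 and 117 CPM in double positive and 185, 221 and 153 CPM in double negative. The RFP single positive libraries were all below the double negative ones (log2 -0.47 ± 0.21, SE; adjusted p = 0.651, edgeR). Mad2l1 was at 119, 110 and 133 CPM, 113, 127 and 102 CPM, and 151, 183 and 134 CPM in the same order. Its double negative libraries were above those of both other groups, with log2 estimates of -0.37 ± 0.18 and -0.46 ± 0.18 (SE) for RFP single and double positive against double negative and adjusted p-values of 0.675 and 0.558 (edgeR).

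Cenpa was at 75.7, 74.5 and 102 CPM in RFP single positive, 94.8, 113 and 98.9 CPM in double positive and 101, 128 and 95.7 CPM in double negative, with all 3 groups overlapping. Ube2c was at 43.3, 48.0 and 82.5 CPM, 73.7, 91.8 and 68.1 CPM, and 48.4, 60.6 and 50.6 CPM, and Nusap1, which bundles spindle microtubules, was at 55.4, 64.6 and 77.1 CPM in double positive against 34.2, 42.2 and 52.4 CPM in double negative. Both were higher in every double positive library than in any double negative one, at adjusted p-values of 0.591 and 0.570 (edgeR). In all, 2 members were lower without overlap in RFP single positive than in double negative (5.52% of all genes) and 0 higher (7.64%). None was higher without overlap in RFP single positive than in double positive (3.84%), and in double positive against double negative 2 were higher (6.28%) and 2, Mad2l1 and Spc24, lower (4.94%). These comparisons share their groups. Mki67 ranged from 2.85 to 15.2 CPM over the 9 libraries. Within groups the members spread widely, with RFP single positive 1 the lowest of its group in 34 genes and RFP single positive 3 the highest in 32. Replicate 2 of each reporter group had an Xist share of 88.1% to 99.9% and the others at most 10.2%, the same in all 3 groups.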

How the data were processed

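RNA was measured by SMART-seq2 in 21 bulk HSC libraries. The authors deposited a table of raw counts; the submitters' processing notes name Bowtie 1.0.0, STAR 2.6.1 and HTSeq 0.7.1, and the builds GRCh38 and GRCm38.p4, with no roles stated. Neither the annotation used nor whether counting was stranded is stated there. Coordinates come from GRCm38 (GENCODE M21). Totals were 15005500 to 31481691 counts.

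Groups came from the labels. Each experiment was fitted apart with edgeR 4.0.16 (R 4.3.3; filterByExpr, TMM, quasi-likelihood test), with Benjamini-Hochberg adjustment over all genes tested and a threshold of 0.05. CPM are TMM-scaled. Alternatives were relative log expression scaling, DESeq2 1.42.0, limma 3.58.1 voom with sample quality weights, no low-count filter, a replicate block, the Xist share as covariate, the compared groups only, and left-out libraries; length and GC offsets were added after the data were seen. On simulated counts for bortezomib in WT (15572 genes), 40% of 2-fold and 66% of 4-fold changes (100 genes each) were recovered, with 11 false calls. For double positive against double negative (14757 genes), 15% and 59% were recovered, with 4 false calls.

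The members and lists were chosen with earlier results of these data known. Every library's value is given for up to 10 called members with the smallest p per comparison, or for the 3 with the smallest p where fewer than 3 were called, and up to 4 called other mitosis genes are named; further members are given by role.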

Additional observations from a re-analysis of the deposited data

Results flagged for a closer look

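The response to bortezomib differed between the genotypes for 5 genes by the test of the difference itself (edgeR interaction, 3 libraries a group). The Atg5-/- response minus the WT response was log2 -1.63 for Cdk1, -1.68 for Spc24, -1.53 for Ccna2, -1.40 for Birc5 and -1.40 for Spc25. Each gene rose in WT and was not called in Atg5-/-. With the Xist share as a covariate Cdk1 and Ccna2 stayed called, and Birc5, Spc24 and Spc25 did not.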

How the results depend on the processing

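No called member changed direction under the alternatives run. Medians of comparisons with no call did cross 0 when 1 library was left out: -0.58 to 0.04 for Atg5-/- with bortezomib, -0.13 to 0.30 for RFP single against double positive, -0.06 to 0.37 for RFP single positive against double negative and -0.15 to 0.21 for double positive against double negative. In WT with bortezomib, 16 members were called, against 26 with limma voom and sample quality weights and 25 without the low-count filter. Without WT DMSO 3, WT bortezomib 3 and Atg5-/- bortezomib 3, 27 were called, and leaving out 1 library gave 4 to 22. Over all genes tested, the main fit called 2508 of 16149 in this comparison. Voom called 6234, the fit without the filter 3172 of 24983, and the fit without those 3 libraries 3961 of 16410. Leaving out 1 library gave 588 to 2762 over all genes. The interaction's 5 calls became 14 with DESeq2, 17 with voom and those weights and 24 without the filter. The count was 2 with the Xist share, 9 with length and GC offsets and 20 without those 3 libraries. Leaving out 1 library gave 1 to 18. Interaction calls over all genes were 1462 in the main fit, 2443 with DESeq2, 4862 with voom and 2319 without the filter. With the Xist share 276 genes were called, with the offsets 1964 and without those 3 libraries 4015. Leaving out 1 library gave 352 to 2820 over all genes. Atg5-/- against WT with DMSO had 1 call without the filter, where 189 of 24983 genes were called. Its median of 0.14 moved to 0.39 with the Xist share. The cause was not tested. In Atg5-/- with bortezomib, 0 members were called under every alternative run, where 182 to 1902 of all genes were called.

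With the replicate number as a block, 19 members were called in WT with bortezomib, 24 for genotype under bortezomib and 17 for the interaction. None was called for Atg5-/- with bortezomib or for genotype with DMSO. Of 16149 genes tested, the block fit called 3039, 5657, 1889, 780 and 23 in the same order. Same-numbered libraries correlated at -0.0774 to 0.245 after group means were removed. Values were over 0.1 in 8 of 21 pairs and in every pair of 0 of 7 comparisons. In 0 comparisons did every library correlate best with its own number, and the main fits treated the libraries as unpaired. Of 6 reporter libraries per comparison, 4 or 5 correlated best with their own number, against 2 to 4 of 6 in the treatment comparisons. Replicate 2 of each reporter group had an Xist share of 88.1% to 99.9%, and the others at most 10.2%. Whether same-numbered reporter libraries came from the same animals was not tested. With the block, 0 members were called in each reporter comparison, and 0 to 2 of 15375 genes tested. In the simulation for double positive against double negative, 15% of 2-fold changes in randomly drawn genes were recovered, so such changes may be missed among reporter groups.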
